A study of Mus musculus with 9 samples.

Results

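T15 cells that received the histone deacetylase (HDAC) inhibitor SAHA (vorinostat) were compared with control T15 cells across all expressed genes. Of 35288 listed genes, 13697 had enough reads to be tested, and 6 of the 9 RNA-seq libraries of the study belong to these groups. T15 is 1 murine peripheral T-cell lymphoma line that lacks Smarcb1, a core subunit of the SWI/SNF chromatin remodelling complex, so both groups share that loss. The 3 SAHA libraries came from cells given 1 µM SAHA repeatedly within 72 h. The study reports that SAHA at this concentration strongly induced apoptosis in T15 cells and that most of them were dead. What dying or surviving cells contributed to the RNA levels below was not tested. The 3 control libraries received no SAHA. The labels mention a vehicle for the inhibitor experiment and, for the re-expression experiment, a control plasmid with G418 selection and doxycycline (Dox), and the study's text calls the control cells untreated, so whether they received the vehicle is not certain. The remaining 3 libraries came from cells in which Dox switched on a Smarcb1 cDNA (Smarcb1-RE), and their values are set beside those of SAHA. They also enter the choice of tested genes, the scaling, a gene's average level and the shared estimate of the spread. With SAHA and control libraries only, 13060 genes were tested instead of 13697.

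HDACs remove acetyl groups from lysines of histone tails and of many other proteins, and acetylated histone tails are a feature of open chromatin at active promoters and enhancers. SAHA binds the zinc ion in the catalytic pocket of class I and class IIb HDACs and so raises acetylation. In lymphoid cells HDAC inhibitors are known for arresting the cell cycle and for changing the RNA of many genes in both directions.

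The libraries held 24564845 to 24941408 counts in control and 23403413 to 24189900 in SAHA. A gene with 3 counts, taken as the floor of detection, lay at 0.123 to 0.133 CPM (counts scaled to a common library size), which covers counting error only. CPM values here are scaled by edgeR's TMM factors and are not divided by gene length, so they compare groups within a gene and not genes with each other. The study's methods call the replicates of each group biological, and neither they nor the labels say how the cultures were separated, so the p-values measure the spread between these samples. Control replicate 1 stood somewhat apart: chi-square per gene was 13.4 and 15.0 in the pairs that included it and 2.50 to 4.69 in the other pairs within a group. Smarcb1 had 2, 5 and 8 counts in control and 7, 13 and 3 in SAHA and did not differ by the test. T-cell genes were present, with the receptor gene Trac at 286, the CD3 chain Cd3e at 396 and the coreceptor Cd8a at 690.1 CPM in control. Cd2, Cd4, Cd5, Cd6 and Thy1 did not reach the filter on low counts.

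SAHA changed the RNA of most expressed genes, and the large changes were mostly increases. At an adjusted p under 0.05 (edgeR's quasi-likelihood test), 4464 genes (32.6%) rose and 4700 (34.3%) fell, and 4533 were not called. Amounts by which a gene rose or fell are given below as log2 fold changes. The typical change was small, with a median log2 fold change of 0.64 among genes that rose and -0.41 among genes that fell, against 0.0027 over all tested genes. A log2 fold change of at least 1 was reached by 1349 genes upward (9.85%) and 322 downward (2.35%). At 4-fold or more the counts were 344 and 42, and at 8-fold or more 115 and 11. Without control replicate 1 the first 4 counts were 4645, 4798, 1442 and 324. These are bulk RNA levels, in which more cells that express a gene and more RNA of it per cell cannot be told apart.

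**Figure D1:**
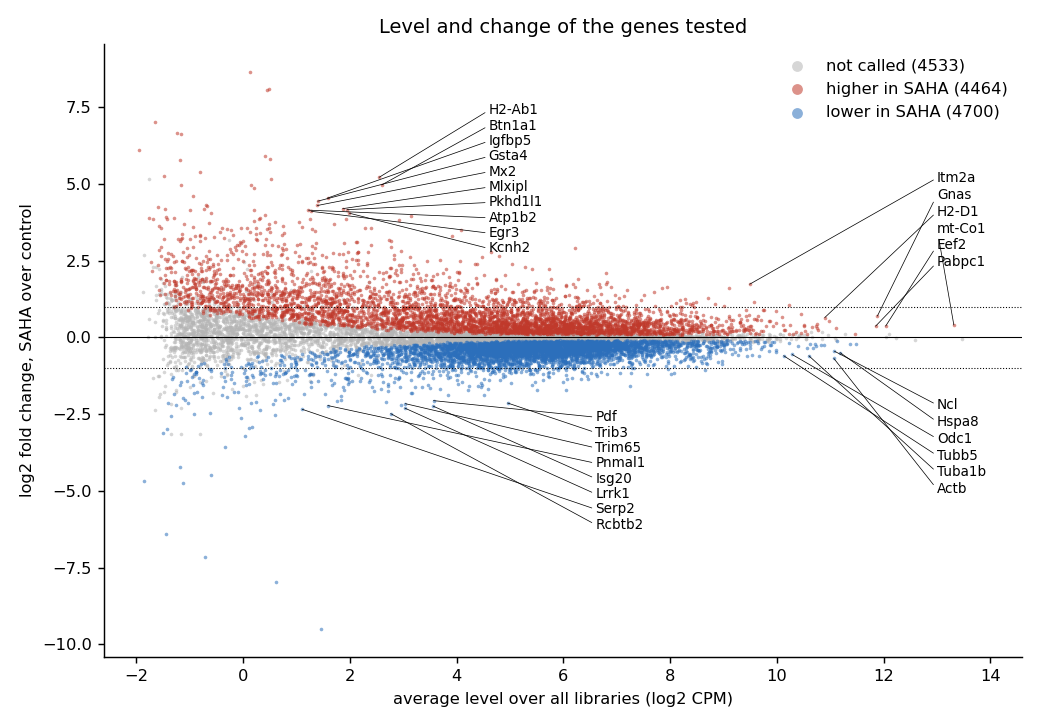
Each point is 1 of 13697 tested genes, with its average level (log2 CPM) on the x axis and its log2 fold change of SAHA over control on the y axis; genes that passed the test are coloured by direction and some of the named genes carry labels. The points spread widely upward at low levels and lie close to 0 at high levels, and those beyond the value of 5.22 for H2-Ab1, on either side, are genes with at most a few counts in 1 of the groups, whose fitted fold change is no measure of size.

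The increases of 2-fold or more were concentrated among genes with low RNA levels. Of the 1574 genes with an average level under 1 CPM, 24.7% rose at least 2-fold and 4.26% fell as much, and of the 1660 genes between 1 and 4 CPM, 27.6% and 4.40% did. Of the 4498 genes between 16 and 64 CPM, 3.56% rose and 1.85% fell by that factor. Among the 751 genes over 256 CPM the shares were 2.26% and 0.399%. A low gene passes the filter only if at least 1 group of libraries is high enough, so these shares describe the genes that passed and not all low genes. The number of genes at 1 CPM or more was 11993 ± 31 in SAHA and 11550 ± 65 in control (SD, n = 3), and the groups did not overlap (p = 0.1 by an exact two-sided permutation test, which cannot give less with 3 against 3 libraries). On the X chromosome 39.1% of 450 tested genes rose and 24.2% fell, with a median log2 fold change of 0.14. The rising share was close to this on chromosomes 10 and 17 (38.2% each), where 30.6% and 29.3% fell and the medians were 0.078 and 0.092.

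**Figure D2:**
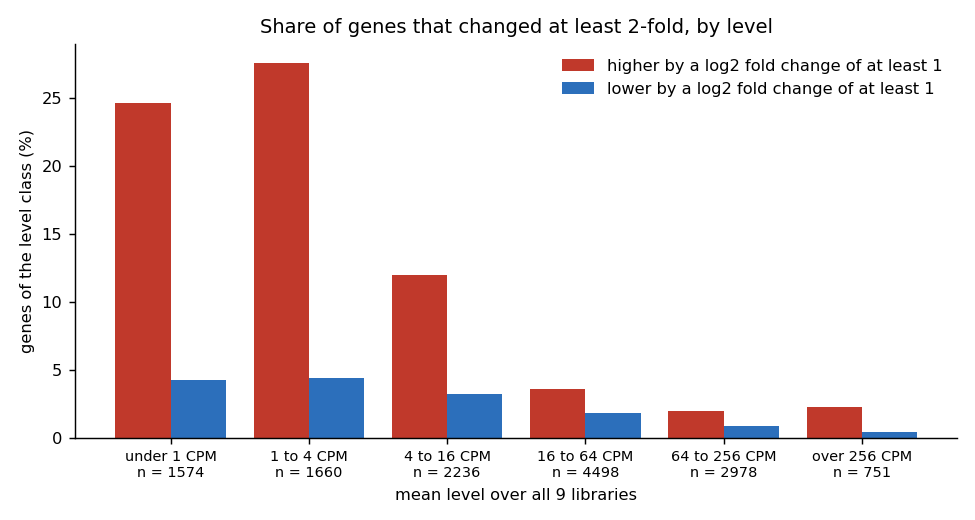
Bars give the percent of tested genes that rose or fell at least 2-fold with an adjusted p under 0.05, by mean level in CPM over all 9 libraries on the x axis. The share of rising genes falls from 27.6% at 1 to 4 CPM to 2.26% over 256 CPM, and the share of falling genes stays at or under 4.40% at every level.

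Among genes whose SAHA and control libraries did not overlap, the 10 with the largest increases at an average level of at least 2 CPM included an antigen-presentation gene, an interferon-induced gene, a growth factor binding protein and an ion channel. H2-Ab1, the beta chain of the MHC class II molecule I-A, stood at 0.34, 0.296 and 0.452 CPM in the control libraries and 10.8, 14.8 and 15.5 CPM in the SAHA libraries, a log2 fold change of 5.22 ± 0.22 (SE) (adjusted p = 2.45e-09). Egr3, an immediate-early transcription factor induced by T-cell receptor signalling, rose by 4.11 ± 0.30 (SE) from 0.425, 0.38 and 0.329 CPM to 5.59, 6.54 and 7.71 CPM. Kcnh2, which encodes a voltage-gated potassium channel, rose by 4.05 ± 0.27 (SE) from 0.553, 0.55 and 0.699 CPM to 7.45, 12.6 and 10.1 CPM. In all of them each SAHA library was many times above each control library, and replicate 1 was the lowest SAHA library for H2-Ab1, Egr3 and Kcnh2. Gsta4, a glutathione transferase that clears products of lipid peroxidation, rose by 4.44 ± 0.33 (SE), from a mean of 0.308 to 6.8 CPM. Mlxipl, the carbohydrate-responsive transcription factor ChREBP, rose by 4.2 ± 0.30 (SE), from 0.449 to 8.32 CPM. Btn1a1, a butyrophilin of the milk fat membrane, rose from a mean of 0.391 to 12.5 CPM, and Mx2 (an interferon-induced dynamin-like GTPase) from 0.183 to 3.69 CPM.

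The 10 genes with the largest decreases at the same minimum level fell less far, with log2 fold changes between -2.06 and -2.48. Lrrk1, a kinase with leucine-rich repeats, went from 12.2, 13.9 and 13.1 CPM to 2.82, 2.56 and 2.54 CPM (-2.31 ± 0.10 (SE), adjusted p = 2.51e-09). Trib3, a pseudokinase induced by the stress factor ATF4, went from 15.5, 14.5 and 15.7 CPM to 3.12, 3.45 and 3.79 CPM (-2.14 ± 0.08 (SE)). Isg20, an exonuclease named for its induction by interferon, went from 12.5, 10.8 and 8.68 CPM to 2.25, 2.48 and 2.02 CPM (-2.24 ± 0.14 (SE)). No SAHA library of these 3 genes reached any control library. Pdf, the mitochondrial peptide deformylase, fell by 2.06 ± 0.10 (SE), and Trim65, a RING-type ubiquitin ligase, by 2.16 ± 0.13 (SE). Rcbtb2, Serp2 and Pnmal1 fell to mean levels of 1.67, 0.653 and 0.987 CPM. The gene models Gm10031 and Gm17383 completed the list and were less certain. Control replicate 1 of Gm10031 stood at 5.57 CPM, below the other controls at 19.6 and 21.9 CPM. Gm17383 lost its call without control replicate 2 (-1.92), SAHA replicate 2 (-1.79) or SAHA replicate 3 (-1.98).

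Among abundant genes, those that gained or lost the most RNA changed by modest factors. Itm2a, a membrane protein of activated T cells, rose from 430.1, 391 and 403 CPM to 1265, 1397 and 1411 CPM (1.73 ± 0.05 (SE)), the largest factor among the 6 genes with the greatest gain in mean CPM. The others of these 6 were mt-Co1, a mitochondrially encoded subunit of cytochrome c oxidase (0.40), Gnas, the stimulatory G protein alpha subunit (0.70), Eef2, a translation elongation factor (0.37), Pabpc1, the poly(A)-binding protein (0.37), and H2-D1, an MHC class I heavy chain (0.65). On the losing side stood beta-actin (Actb, -0.68), the constitutive chaperone Hspa8 (-0.50), the nucleolar protein nucleolin (Ncl, -0.45), ornithine decarboxylase (Odc1, -0.56) and the tubulins Tuba1b (-0.60) and Tubb5 (-0.60).

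Switching on from near silence was defined by a mean control level under 0.3 CPM, at least 1 CPM in every SAHA library and a call in the test. These values chose the genes, so what follows is a description and not a test. The rule found 61 genes (0.445% of those tested), 55 of them protein coding, and they made up 8.33% of the 732 tested genes that were near silent in control. Their levels stayed low, with a median of 1.93 CPM in SAHA and a highest mean of 6.64 CPM. The mirror rule for genes lost found 3 (0.0219%), while 355 tested genes were near silent in SAHA. A gene near silent in 1 group is tested only if libraries of another group are high enough. The 732 and 355 genes are therefore preselected, and the shares among them are not rates among all silent genes. The genes just inside the limit were Igfbp5, Epor and Enpp2, with control means of 0.280, 0.293 and 0.294 CPM, and those just outside were B3gnt5, Nrg4 and Efna3, at 0.306, 0.306 and 0.307 CPM.

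The switched-on genes with the highest SAHA levels included secreted proteins and enzymes. Igfbp5, which binds insulin-like growth factors, was at 0.298, 0.296 and 0.247 CPM in the control libraries and 6.19, 6.05 and 7.67 CPM in the SAHA libraries. Kazald1, a secreted protein related to that family, reached 2.47, 3.67 and 3.79 CPM, and Enpp2, the enzyme autotaxin that makes lysophosphatidic acid, reached 3.16, 5.3 and 4.48 CPM. Membrane proteins among them were Atp1b2, a beta subunit of the sodium-potassium pump (3.94, 5.97 and 5.25 CPM in SAHA), Slc45a3, a solute carrier (2.82, 3.4 and 4.91 CPM), the large fibrocystin-like protein Pkhd1l1 (3.81, 5.13 and 4.87 CPM) and Tnfrsf23, a decoy receptor for the death ligand TRAIL (2.51, 3.4 and 3.57 CPM). The control libraries of these genes lay at 0 to 0.411 CPM, a few counts each.

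Other named switched-on genes encode regulators of transcription, chromatin or RNA. Zbtb46, a transcription factor known from classical dendritic cells, went from 0.425, 0.254 and 0.123 CPM to 2.9, 3.71 and 3.53 CPM. Bahcc1, a chromatin protein with a BAH domain, had 2, 0 and 2 counts in control and 67, 88 and 85 in SAHA, a ratio of 62.2 (95% counting interval 24 to 230). Celf5, an RNA-binding regulator of splicing, reached 2.69, 3.71 and 4.01 CPM. Garnl3, which has a GTPase-activating domain, and Zcchc24 reached means of 3.1 and 3.22 CPM. Outside the naming rule and chosen after their values were seen, the DNA-binding factors Zic2, Sim1, Lhx5, Hoxc12, Tcf7l2 and Tead3, which act in embryonic patterning or organ growth, were also on the list. Zic2 reached 1.69, 1.9 and 2.11 CPM in SAHA and Tcf7l2 reached 1.86, 2.3 and 2.89 CPM. Tead3 had 0, 1 and 1 counts in control and 28, 38 and 30 in SAHA, a ratio of 49.8 (95% counting interval 13.4 to 417).

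Genes without a single count in control were rare among the 61. ENSMUSG00000111527, for which no name was found, had 0 counts in each control library and 52, 50 and 47 in SAHA, at least 17.2-fold higher against the floor of 3 counts in each library. Gm49337 had 0 counts in each control library and 36, 37 and 27 in SAHA, at least 11.5-fold higher on the same scale. Both were chosen after their values were seen. In all, 76 genes that rose had at most 3 counts in every control library, and 19 genes that fell had at most 3 in every SAHA library.

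**Figure D3:**
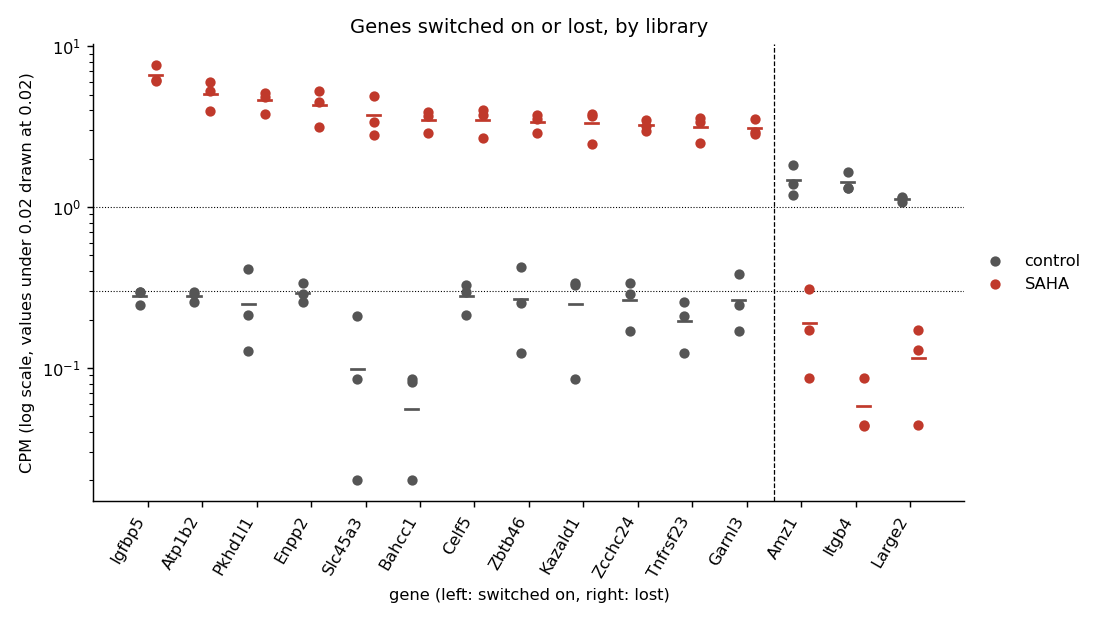
Levels in CPM on a logarithmic axis of the 12 protein-coding genes switched on with the highest SAHA mean and of the 3 genes lost, with 1 point per control (grey) and SAHA (red) library, a short line at each group's mean, dotted lines at 0.3 and 1 CPM, and values under 0.02 CPM drawn at 0.02. For every gene shown the 3 SAHA points lie apart from the 3 control points.

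The 3 genes lost were Itgb4, Amz1 and Large2. Itgb4, the integrin beta 4 chain that anchors epithelial cells to laminin, had 39, 31 and 32 counts in control and 1, 1 and 2 in SAHA, 24.6-fold lower (95% counting interval 9.31 to 92.0). Amz1, a metallopeptidase, was at 1.83, 1.39 and 1.19 CPM in the control libraries and 0.173, 0.309 and 0.0861 CPM in the SAHA libraries. Large2, a glycosyltransferase that extends the sugar chain of dystroglycan, was at 1.15, 1.14 and 1.07 CPM in the control libraries and 0.173, 0.0442 and 0.129 CPM in the SAHA libraries. The control levels themselves were below 2 CPM, so the losses concern genes that were low to begin with. The count of lost genes was 5 without control replicate 1, control replicate 3, SAHA replicate 1 or SAHA replicate 3.

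The gene lists below were compiled by function, and their members are set against the 32.6% of all tested genes that rose and the 34.3% that fell. The highest shares of members that fell were in the lists of mitosis, DNA replication, the ATF4 response and ribosome biogenesis, and the highest shares that rose in those of MHC class II, germline genes, cell cycle inhibitors, interferon-induced genes and inhibitory receptors. A member that is nearly silent in control passes the filter on low counts only through a group in which it is higher. The counts of lists with many silent members therefore describe the members that passed and not the whole list. Such lists include those of MHC class II, cytokines, germline genes, other blood lineages, neurons, axon guidance, matrix and patterning factors. Many lists leaned less far to 1 side, and several were split between the directions with medians near 0.

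**Figure D4:**
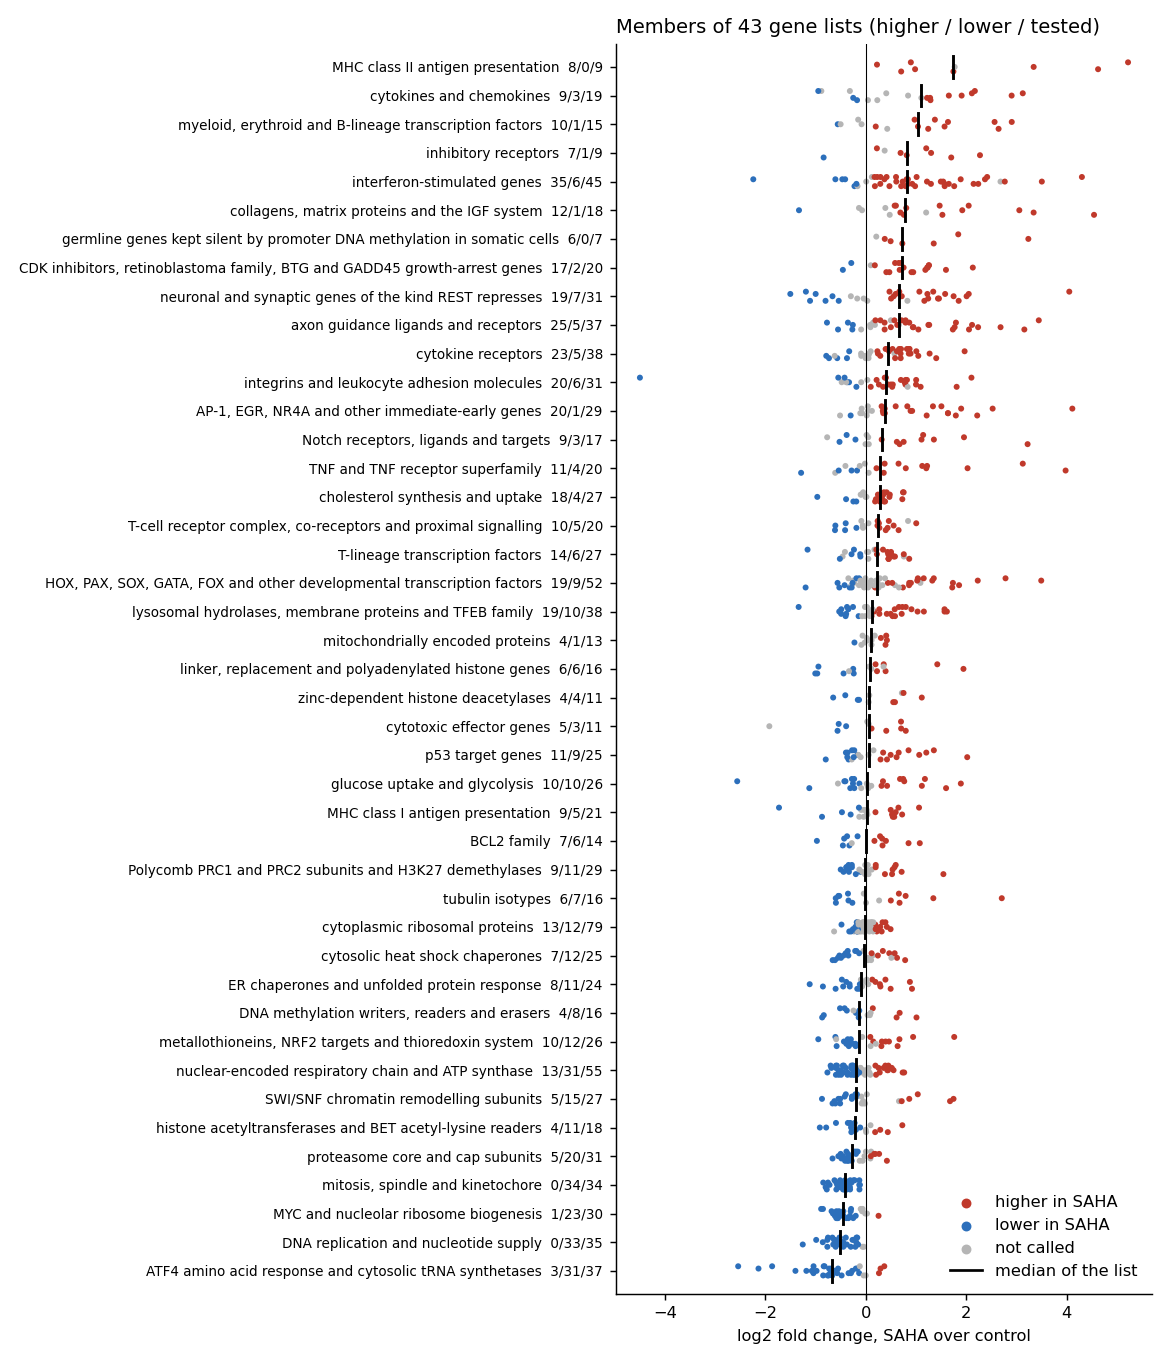
Each point is a tested member of 1 of 43 gene lists, with its log2 fold change of SAHA over control on the x axis, coloured by its call, a black bar at the list's median, and the members higher, lower and tested beside the name. Mitosis (34 of 34) and DNA replication (33 of 35) lie almost wholly to the left of 0, and MHC class II (8 of 9) to the right.

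Genes of cell division fell almost without exception, by small and even amounts. Of 35 tested DNA replication genes, 0 rose, 33 fell and 2 did not pass the test, with a median log2 fold change of -0.51. Tk1, the thymidine kinase of S phase, went from 171, 163 and 151 CPM to 76.3, 62.6 and 64.3 CPM (-1.26 ± 0.07 (SE), adjusted p = 1.39e-08), the largest change of the list. Tyms, which makes thymidylate, fell by 0.99 ± 0.05 (SE), the GINS subunit Gins2 by 0.86 ± 0.05 (SE) and the helicase subunit Mcm5 by 0.77 ± 0.04 (SE). Mcm6 (-0.04) and cyclin E1 (Ccne1, -0.07) did not pass the test and were named because they were the exceptions. Of 34 mitosis genes all 34 fell, with a median of -0.42. Cdc20, the activator of the anaphase-promoting complex, went from 159.6, 151 and 142 CPM to 86.8, 81.5 and 82.7 CPM (-0.85 ± 0.05 (SE)). Cyclin B2 (Ccnb2) went from 136, 125 and 118 CPM to 73.3, 70.8 and 73.3 CPM (-0.80 ± 0.06 (SE)), the cytokinesis protein Anln fell by 0.78 ± 0.06 (SE) and the mitotic kinase Plk1 by 0.75 ± 0.04 (SE). The control and SAHA libraries of Tk1, Cdc20 and Ccnb2 did not overlap, and the spread within each group was far smaller than the gap.

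Many promoters of mitotic genes are known to hold CCAAT boxes, which bind the factor NF-Y. The windows of Ccnb2 and Cdc20 are shown because they hold several, from 250 bases before to 50 bases after the start of the gene, 5′ to 3′, after RefSeq on GRCm38.p6 (chr9:70421505-70421804, minus strand, and chr4:118437294-118437593, minus strand), with each CCAAT in capitals.
Ccnb2: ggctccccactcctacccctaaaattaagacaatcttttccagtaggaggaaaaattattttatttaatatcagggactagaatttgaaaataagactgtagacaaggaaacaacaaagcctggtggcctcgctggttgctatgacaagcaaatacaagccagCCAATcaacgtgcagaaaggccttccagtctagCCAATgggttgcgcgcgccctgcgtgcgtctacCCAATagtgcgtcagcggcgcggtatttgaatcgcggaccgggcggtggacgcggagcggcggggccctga
Cdc20: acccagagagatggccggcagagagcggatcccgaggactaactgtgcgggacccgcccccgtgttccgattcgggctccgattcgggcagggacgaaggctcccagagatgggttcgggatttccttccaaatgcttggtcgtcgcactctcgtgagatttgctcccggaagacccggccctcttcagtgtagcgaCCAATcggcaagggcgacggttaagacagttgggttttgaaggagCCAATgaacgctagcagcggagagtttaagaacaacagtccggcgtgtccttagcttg
The boxes of Ccnb2 begin 87, 54 and 21 bases before the start, and those of Cdc20 begin 53 and 8 bases before it. CCAAT, searched on both strands, was found in 19 of 28 mitosis genes with a window (67.9%), in 17 of 28 replication genes (60.7%) and in 37.4% of all 32851 windows. All windows include those of genes that were not tested, while 9792 tested genes had a window. The shares therefore compare unlike sets of genes. A match describes the letters of the window and not a bound site.

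Inhibitors of the cell cycle moved in the other direction. Of 20 tested genes of this list, which also holds D-type cyclins and retinoblastoma family members, 17 rose, 2 fell and 1 did not pass the test, with a median log2 fold change of 0.72. Cdkn2d (p19-INK4d), which blocks CDK4 and CDK6, went from 12.1, 13.1 and 11.8 CPM to 33, 40.7 and 38.1 CPM (1.59 ± 0.08 (SE), adjusted p = 5.94e-09). The growth arrest genes Gadd45g and Gadd45a rose by 2.13 ± 0.31 (SE) and 1.25 ± 0.20 (SE), and Cdkn1c (p57) by 1.25 ± 0.14 (SE). Cdkn1a (p21), a well-known response gene of HDAC inhibition, stood at 1.96, 2.83 and 2.67 CPM in the control libraries and 4.24, 3.8 and 3.7 CPM in the SAHA libraries, a smaller rise of 0.65 ± 0.15 (SE) (adjusted p = 0.00184). All SAHA libraries of Cdkn2d and Cdkn1a lay above all control libraries. The 2 members that fell were Cdkn2c (-0.29) and the pocket protein gene Rbl1 (-0.46), and cyclin D2 (Ccnd2, 0.10) was not called. Of 25 p53 target genes 11 rose, 9 fell and 5 did not pass the test, with a median log2 fold change of 0.06.

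The ATF4 response, the set of amino acid synthesis, transport and tRNA charging genes that ATF4 switches on under nutrient or translation stress, fell as a group. Of 37 tested members 3 rose, 31 fell and 3 did not pass the test, with a median log2 fold change of -0.67. Atf4 itself was at 372, 337 and 331 CPM in the control libraries and 255, 218 and 226 CPM in the SAHA libraries (-0.57 ± 0.06 (SE), adjusted p = 2.94e-06). Chac1, which degrades glutathione, went from 9.27, 9.51 and 8.88 CPM to 3.12, 2.3 and 2.15 CPM (-1.87 ± 0.11 (SE)), and the neutral amino acid transporter Slc1a4 from 34.3, 35.8 and 36.5 CPM to 15.1, 11.8 and 13.4 CPM (-1.4 ± 0.07 (SE)). SAHA and control libraries were apart for all 3 genes. Asparagine synthetase (Asns) went from 265, 266 and 256 CPM to 139, 118 and 125 CPM (-1.04 ± 0.05 (SE)), and the transcription factor CHOP (Ddit3) fell by 1.04 ± 0.10 (SE). Stc2 had the lowest value of the list (-2.54 ± 0.82 (SE)) on a few counts per library, and its call was lost without control replicate 3 (-2.0) or SAHA replicate 2 (-2.02). The 3 members that rose were the glutamine transporter Slc1a5 (0.37), Sesn2 (0.29) and Nupr1 (0.26), named because they went against the list, and Nupr1 lost its call without SAHA replicate 3 (0.22).

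ATF4 binds with C/EBP partners to a composite element with the letters TTGCATCA. The windows of Chac1 (chr2:119350992-119351291, plus strand) and Slc1a4 (chr11:20332664-20332963, minus strand) are shown since both genes fell more than 2-fold and hold this element, which is in capitals (RefSeq, GRCm38.p6, 5′ to 3′).
Chac1: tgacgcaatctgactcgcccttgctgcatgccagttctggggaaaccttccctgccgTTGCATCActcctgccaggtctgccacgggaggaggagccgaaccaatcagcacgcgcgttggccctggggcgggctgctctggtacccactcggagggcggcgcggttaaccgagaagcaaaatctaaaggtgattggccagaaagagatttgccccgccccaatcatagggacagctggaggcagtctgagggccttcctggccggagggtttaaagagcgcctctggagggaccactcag
Slc1a4: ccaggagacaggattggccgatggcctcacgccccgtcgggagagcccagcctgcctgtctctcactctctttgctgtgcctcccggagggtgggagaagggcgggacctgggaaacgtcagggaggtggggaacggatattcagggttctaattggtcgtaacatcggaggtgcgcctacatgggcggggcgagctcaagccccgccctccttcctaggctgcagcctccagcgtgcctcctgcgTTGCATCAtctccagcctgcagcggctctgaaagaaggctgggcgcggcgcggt
The element begins 193 bases before the start of Chac1 and 4 bases before that of Slc1a4. Searched on both strands, TTGCATCA was found in 9 of the 30 ATF4 response genes with a window (30.0%) and in 0.895% of all 32851 windows. Here too the windows of genes that were not tested are part of the second share.

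Genes that build ribosomes mostly fell, while the ribosomal proteins did not move to 1 side. Of 30 ribosome biogenesis genes 1 rose, 23 fell and 6 did not pass the test, with a median log2 fold change of -0.45. Dkc1, the pseudouridine synthase dyskerin, went from 304, 287 and 275 CPM to 166, 148 and 154 CPM (-0.89 ± 0.05 (SE)), and the processome proteins Utp20 and Nop16 fell by 0.85 ± 0.06 (SE) and by 0.68 ± 0.06 (SE). The only member that rose was the transcription factor Myc (0.25 ± 0.04 (SE)). Of 79 ribosomal protein genes 13 rose, 12 fell and 54 did not pass the test, with a median log2 fold change of -0.03, and the median was 0.08 without control replicate 1. Of 31 proteasome subunits 5 rose, 20 fell and 6 did not pass the test, with a median log2 fold change of -0.28 (-0.23 without control replicate 1), led by the ATPase subunit Psmc5 (-0.66 ± 0.06 (SE)). Of 55 nuclear genes for the respiratory chain 13 rose, 31 fell and 11 did not pass the test, with a median log2 fold change of -0.19 (-0.14 without control replicate 1), and of 13 genes of the mitochondrial genome 4 rose, 1 fell and 8 did not pass the test, with a median log2 fold change of 0.11 (0.21 without control replicate 1). The mitochondrial share of all counts was 3.57% in SAHA and 3.20% in control (p = 0.2 by an exact two-sided permutation test).

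Interferon-induced genes, which defend cells against viruses, mostly rose. Of 45 tested members 35 rose, 6 fell and 4 did not pass the test, with a median log2 fold change of 0.81. Irf7, a transcription factor that amplifies the interferon response, went from 1.79, 1.94 and 1.19 CPM to 13.9, 20.6 and 21.4 CPM (3.5 ± 0.19 (SE), adjusted p = 1.38e-08). Stat2, a subunit of the factor ISGF3, went from 54, 51.2 and 55.9 CPM to 146, 186 and 174 CPM (1.65 ± 0.08 (SE)), and the ubiquitin-like protein Isg15 from 17.9, 14.5 and 13.2 CPM to 38.2, 47.2 and 49.6 CPM (1.57 ± 0.11 (SE)). In each of the 3 genes SAHA replicate 1 was the lowest SAHA library and still above every control library. Mx1, an antiviral GTPase, rose by 2.77 ± 0.21 (SE) and Usp18, which removes Isg15 from proteins, by 2.41 ± 0.28 (SE). The 6 members that fell were led by Isg20, described above.

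Ifng, the type II interferon that T cells secrete, had the smallest adjusted p of the cytokine list. It stood at 25.7, 22.3 and 22.2 CPM in the control libraries and 166, 183 and 175 CPM in the SAHA libraries, a log2 fold change of 2.9 ± 0.06 (SE) (adjusted p = 5.37e-11). Of 19 tested cytokine and chemokine genes 9 rose, 3 fell and 7 did not pass the test, with a median log2 fold change of 1.10 (0.73 without control replicate 2). Lymphotoxin alpha (Lta) rose by 3.12 ± 0.40 (SE) from near silence and the chemokines Ccl4 and Ccl3 by 2.17 ± 0.52 (SE) and 1.91 ± 0.10 (SE). Il15, a growth factor of memory T cells, rose from 0.213, 0.254 and 0.247 CPM to 0.91, 1.1 and 1.12 CPM. The SAHA libraries of Ifng and Il15 lay above all controls. Of 38 tested cytokine receptor genes 23 rose, 5 fell and 10 did not pass the test, with a median log2 fold change of 0.45. The interleukin 2 receptor alpha chain (Il2ra) rose by 1.4 ± 0.22 (SE) and the interleukin 27 receptor (Il27ra) by 1.97 ± 0.22 (SE).

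MHC class II genes, which professional antigen-presenting cells use and mouse T cells as a rule keep silent, mostly rose at low levels. Of 9 tested members 8 rose, 0 fell and 1 did not pass the test, with a median log2 fold change of 1.74. Without SAHA replicate 2 the median was 0.93 and 6 members rose. Beside H2-Ab1, its partner chain H2-Aa was at 0.128, 0.296 and 0.165 CPM in the control libraries and 1.52, 2.43 and 2.15 CPM in the SAHA libraries, and H2-Eb1, the beta chain of I-E, was at 0.213, 0.169 and 0.206 CPM in the control libraries and 0.39, 0.84 and 0.775 CPM in the SAHA libraries. All SAHA libraries of these genes lay above all control libraries. H2-Ob, a chain of a class II peptide-loading regulator, had 1, 1 and 1 counts in control and 19, 29 and 32 in SAHA, a ratio of 27.7 (95% counting interval 9.13 to 137). H2-DMa, of the peptide editor H2-DM, rose by 0.98 ± 0.10 (SE), and the invariant chain Cd74 by 0.70 ± 0.28 (SE) at levels under 1 CPM, a call that was lost without control replicate 1 (0.59) or 3 (0.69), without SAHA replicate 2 (0.62) or 3 (0.64), with DESeq2 (0.72) and with the replicate number as a block (0.70). Ciita, the coactivator that class II transcription is known to need, did not reach the filter on low counts and stayed at or under 0.0423 CPM in every control and SAHA library. H2-Ob, H2-Ab1, H2-Aa and H2-Eb1 lie in this order on chromosome 17 between 34238903 and 34316674 (GRCm38), and all 4 rose at least 2-fold.

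Class II promoters carry a Y box, a CCAAT in either orientation that NF-Y binds. The windows of H2-Aa (chr17:34287774-34288073, minus strand) and H2-Eb1 (chr17:34305617-34305916, plus strand) are shown with CCAAT or its reverse complement ATTGG in capitals (RefSeq, GRCm38.p6, 5′ to 3′).
H2-Aa: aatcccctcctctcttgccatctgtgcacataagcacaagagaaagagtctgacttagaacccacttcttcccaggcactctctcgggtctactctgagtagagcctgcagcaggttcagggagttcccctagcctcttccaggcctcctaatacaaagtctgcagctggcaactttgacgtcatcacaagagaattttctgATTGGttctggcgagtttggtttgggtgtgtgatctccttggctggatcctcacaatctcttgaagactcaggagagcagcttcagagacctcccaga
H2-Eb1: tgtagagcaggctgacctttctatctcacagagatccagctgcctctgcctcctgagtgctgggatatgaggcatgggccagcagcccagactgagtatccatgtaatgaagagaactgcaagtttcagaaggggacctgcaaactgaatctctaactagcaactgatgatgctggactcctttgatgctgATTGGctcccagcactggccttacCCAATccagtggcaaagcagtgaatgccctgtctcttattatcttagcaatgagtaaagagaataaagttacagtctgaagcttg
ATTGG begins 48 bases before the start of H2-Aa and 59 bases before that of H2-Eb1, where a CCAAT follows at 35 bases. These letters also occur in 37.4% of all windows, so their presence alone sets no gene apart.

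MHC class I was split. Of 21 tested genes of class I presentation 9 rose, 5 fell and 7 did not pass the test, with a median log2 fold change of 0.02. The heavy chains H2-Q7 (1.06 ± 0.05 (SE)), H2-T22 (0.72 ± 0.05 (SE)) and H2-D1 (0.65 ± 0.04 (SE)) rose. Psmb10, a catalytic subunit of the immunoproteasome, went from 126, 106 and 102 CPM to 35.5, 32.8 and 32.1 CPM (-1.73 ± 0.07 (SE), adjusted p = 2.67e-09), with no overlap between the groups, and the peptide editor Tapbpl fell by 0.87 ± 0.09 (SE).

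**Figure D5:**
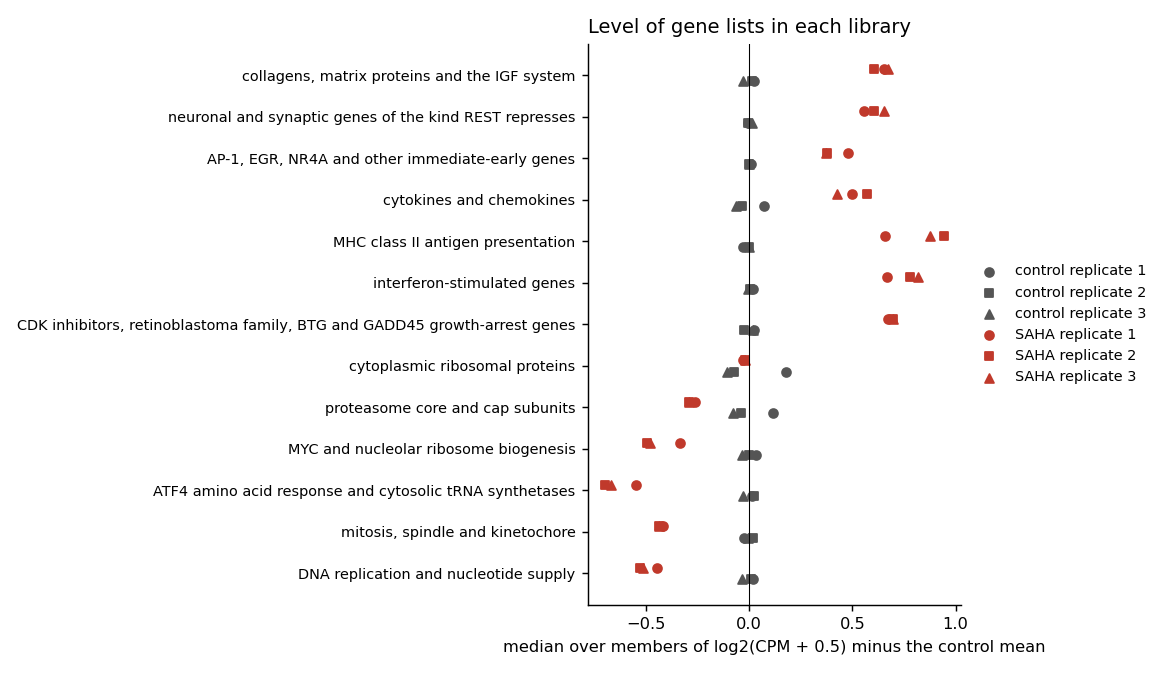
The x axis gives the median over the members of 13 gene lists of log2(CPM + 0.5) minus the control mean, with 1 point per control (grey) and SAHA (red) library. The 3 SAHA libraries lie below 0 for replication, mitosis, ribosome biogenesis and the ATF4 response and above 0 for cell cycle inhibitors, interferon-induced genes and MHC class II, while the 3 control libraries lie around 0, control replicate 1 being the highest of them for ribosomal proteins and the proteasome.

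Immediate-early genes, which T cells switch on within minutes of receptor signalling, were mostly higher after 72 h. Of 29 tested members 20 rose, 1 fell and 8 did not pass the test, with a median log2 fold change of 0.38. Nr4a1, an orphan nuclear receptor used as a reporter of receptor signalling, went from 130.04, 135 and 123 CPM to 395, 399.9 and 409 CPM (1.63 ± 0.05 (SE), adjusted p = 1.2e-10). Its relative Nr4a3 went from 9.61, 12.7 and 12.9 CPM to 57.2, 51.7 and 54.9 CPM (2.22 ± 0.08 (SE)), and Fos, a subunit of AP-1, from 11, 10.1 and 11.5 CPM to 32.2, 40.4 and 40.1 CPM (1.79 ± 0.09 (SE)). Every SAHA library of these genes was more than 2-fold above every control library. Egr3 led the list, Ier3 rose by 2.52 ± 0.41 (SE) and Maff, a small Maf factor, by 1.9 ± 0.30 (SE). Egr1 rose by 1.34 ± 0.05 (SE) and Jun by 0.35 ± 0.10 (SE), while Junb (0.04) was not called. The only member that fell was Mafg (-0.30).

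Genes of the T-cell receptor and its signalling chain moved by small amounts in both directions. Of 20 tested genes 10 rose, 5 fell and 5 did not pass the test, with a median log2 fold change of 0.23. Cd8a rose by 0.55 ± 0.03 (SE) and the phosphatase CD45 (Ptprc) by 0.65 ± 0.03 (SE), while the adaptor Lat fell by 0.62 ± 0.07 (SE) and the zeta chain Cd247 by 0.61 ± 0.04 (SE). Of 27 transcription factors of T-cell development and subsets 14 rose, 6 fell and 7 did not pass the test, with a median log2 fold change of 0.22. Klf2, which holds T cells in quiescence, went from 1.49, 1.01 and 1.32 CPM to 0.563, 0.663 and 0.474 CPM (-1.16 ± 0.25 (SE)), Myb rose by 0.86 ± 0.16 (SE) and Zbtb7b by 0.75 ± 0.06 (SE). Of 9 inhibitory receptor and ligand genes 7 rose, 1 fell and 1 did not pass the test, with a median log2 fold change of 0.81. PD-1 (Pdcd1) went from 11.7, 11.4 and 12 CPM to 24.4, 30.8 and 31.3 CPM (1.3 ± 0.09 (SE), adjusted p = 5.84e-08) and Tigit from 2.08, 2.16 and 1.65 CPM to 3.9, 5.17 and 4.48 CPM (1.2 ± 0.19 (SE)), and in both genes all SAHA libraries lay above all controls. Of 11 tested cytotoxicity genes 5 rose, 3 fell and 3 did not pass the test, with a median log2 fold change of 0.06, and of 20 TNF ligand and receptor genes 11 rose, 4 fell and 5 did not pass the test, with a median log2 fold change of 0.28. The death receptor Fas rose by 1.2 ± 0.10 (SE), whereas Tnfrsf19 fell by 1.29 ± 0.12 (SE).

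Transcription factors of other blood lineages mostly rose. Of 15 tested factors of myeloid and B cells 10 rose, 1 fell and 4 did not pass the test, with a median log2 fold change of 1.04. Irf8, known from monocytes and dendritic cells, went from 2.68, 3.3 and 3.0 CPM to 14.5, 19.4 and 19.3 CPM (2.56 ± 0.14 (SE), adjusted p = 1.27e-08), and Irf4, which activated T cells also use, from 375, 437 and 424 CPM to 840.5, 842 and 854 CPM (1.04 ± 0.05 (SE)). The groups of both genes were far apart. Pax5, the B-cell identity factor, was at 0, 0.254 and 0.0411 CPM in the control libraries and 0.953, 0.486 and 0.861 CPM in the SAHA libraries, and Gata2 of blood stem cells and mast cells at 0, 0.211 and 0.123 CPM in the control libraries and 0.606, 1.02 and 0.56 CPM in the SAHA libraries. Spi1, the leading factor of myeloid cells, did not reach the filter, and Cebpb fell by 0.56 ± 0.06 (SE). Markers of whole cell types that the culture could hold gave the following values. Of 14 macrophage and granulocyte markers only Cd68 was tested (1.62, 1.48 and 1.97 CPM in control and 5.72, 7.2 and 7.32 CPM in SAHA). The summed level of the list was 2.20 to 2.76 CPM in control and 6.24 to 7.58 CPM in SAHA, the rise being that of Cd68. Lyz2, Csf1r, Itgam and Mpo were below the filter. Itgam, the highest of the untested members, was lower in SAHA (0.510, 0.338 and 0.452 CPM in control and 0, 0.0442 and 0.0431 CPM in SAHA). The B-cell list summed to 93.3 to 96.7 CPM in control and 104 to 114 CPM in SAHA, almost all of it Ebf1 (92.8 and 106 CPM), with Cd79a and Cd79b below the filter. Of 8 dendritic cell markers 2 were tested and the list summed to 0.423 to 0.85 CPM in control and 3.68 to 4.46 CPM in SAHA, most of it Zbtb46, with Flt3, Itgax and Clec9a below the filter. Of 12 erythroid and megakaryocyte markers 2 were tested, with sums of 2.79 to 3.23 CPM in control and 5.94 to 7.69 CPM in SAHA, most of the difference being Epor, and the globin genes were below the filter. Of 13 fibroblast and endothelial markers 3 were tested, with sums of 155 to 161 CPM and 114 to 128 CPM, nearly all of it Pecam1. Of 9 epithelial markers Epcam was tested, with sums of 0.803 to 1.45 CPM and 2.38 to 3.36 CPM, and the natural killer list stayed at or under 0.510 CPM in both groups. The part of other cell types in the results was not tested.

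Among genes that are typical of neurons, more rose than fell. Of 31 tested members 19 rose, 7 fell and 5 did not pass the test, with a median log2 fold change of 0.67. Snap25, a SNARE protein of synaptic vesicle release, went from 43.2, 41.8 and 42.1 CPM to 144, 144 and 139 CPM (1.75 ± 0.04 (SE), adjusted p = 5.37e-11), and the vesicle protein Syn1 from 4.25, 4.9 and 4.73 CPM to 15.9, 21 and 20.5 CPM (2.05 ± 0.12 (SE)). The libraries of each group lay close together and the groups did not overlap. Bex2 rose by 1.85 ± 0.11 (SE). Of 37 tested axon guidance genes 25 rose, 5 fell and 7 did not pass the test, with a median log2 fold change of 0.66. Much of this list, all Robo genes among it, was too low to be tested. Sema4c, with a control mean of 0.224 CPM, passed the filter through its SAHA level, so the count favours rises. Plxna3, a receptor of semaphorins, went from 18, 16 and 19.7 CPM to 75.8, 91.1 and 85.9 CPM (2.23 ± 0.08 (SE)), the ephrin Efna3 rose by 3.44 ± 0.31 (SE) and the semaphorin Sema4c by 2.68 ± 0.29 (SE). The list of tubulins was divided (6 of 16 rose and 7 fell): Tubb2b, best known from the developing brain, rose by 2.71 ± 0.20 (SE), and the abundant Tuba1b and Tubb5 fell.

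Genes of cell adhesion and the extracellular matrix mostly rose. Of 18 tested matrix and insulin-like growth factor genes 12 rose, 1 fell and 5 did not pass the test, with a median log2 fold change of 0.78. The laminin chain Lama5 went from 0.468, 0.38 and 0.535 CPM to 3.21, 3.98 and 4.44 CPM (3.05 ± 0.25 (SE)), and the collagen chain Col1a1 from 0.0425, 0.211 and 0 CPM to 0.736, 0.884 and 1.08 CPM (3.34 ± 0.56 (SE)). Every SAHA library of both genes lay above every control library. The only member that fell was Thbs3 (-1.33 ± 0.07 (SE)), named because it went against the list. Of 31 adhesion genes 20 rose, 6 fell and 5 did not pass the test, with a median log2 fold change of 0.40, with Itga3 (2.1 ± 0.19 (SE)) and Itga7 (1.81 ± 0.29 (SE)) rising and Itgb4 lost.

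Most germline genes were too low to be tested. Of 40 on the list 7 passed the filter, and 6 of these rose, a count that the filter favours. The germ cell RNA-binding protein Dazl was at 0.298, 0.0423 and 0.0823 CPM in the control libraries and 1.39, 1.24 and 1.46 CPM in the SAHA libraries, and the helicase Ddx4 (Vasa) at 0.34, 0.296 and 0.411 CPM in the control libraries and 0.996, 1.72 and 1.08 CPM in the SAHA libraries. Their SAHA libraries lay above all control libraries at levels near 1 CPM. Of 52 tested homeobox and patterning factors 19 rose, 9 fell and 24 did not pass the test, with a median log2 fold change of 0.22, a share of rising genes close to that over all tested genes, with the largest increases in Lhx5 (3.49 ± 0.37 (SE)), Dlx6 (2.78 ± 0.25 (SE)) and Neurod1 (2.23 ± 0.56 (SE)). In the Notch pathway 9 of 17 tested genes rose and 3 fell, and the receptor Notch1 went from 1.45, 2.87 and 2.39 CPM to 7.02, 9.33 and 9.69 CPM (1.95 ± 0.20 (SE)) and its ligand Jag1 from 13.8, 14.8 and 15.1 CPM to 37, 38.4 and 36.5 CPM (1.35 ± 0.06 (SE)).

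Among the zinc-dependent deacetylases, the family to which the enzymes inhibited by SAHA belong, the changes went both ways. Of 11 genes 4 rose, 4 fell and 3 did not pass the test, with a median log2 fold change of 0.07. Hdac1, a class I enzyme, went from 357, 348 and 338 CPM to 493, 516 and 513 CPM (0.54 ± 0.04 (SE), adjusted p = 8.93e-08). The class II enzymes Hdac5 and Hdac6 rose by 1.11 ± 0.07 (SE) and 0.75 ± 0.07 (SE), and Hdac9 by 0.58 ± 0.09 (SE). Hdac10 fell by 0.65 ± 0.07 (SE), Hdac3 by 0.41 ± 0.05 (SE) and Hdac2 by 0.14 ± 0.04 (SE). The Hdac1 and Hdac3 libraries of SAHA and control did not overlap. Of 18 genes for acetyltransferases and acetyl-lysine readers 4 rose, 11 fell and 3 did not pass the test, with a median log2 fold change of -0.21, led by the acetyltransferase Kat2a, which went from 138, 147 and 140.1 CPM to 78.6, 72.7 and 73.6 CPM (-0.92 ± 0.05 (SE)).

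Genes of other chromatin complexes also moved in both directions. Of 27 SWI/SNF subunits 5 rose, 15 fell and 7 did not pass the test, with a median log2 fold change of -0.19, with the subunits Dpf1 (1.74 ± 0.23 (SE)), Dpf3 (1.68 ± 0.33 (SE)) and Bicra (1.03 ± 0.08 (SE)) rising and Smarcd1 (-0.87 ± 0.05 (SE)) falling. Of 29 Polycomb genes 9 rose, 11 fell and 9 did not pass the test, with a median log2 fold change of -0.01. Jarid2, a partner of the PRC2 complex, went from 7.06, 6.76 and 8.1 CPM to 21.4, 20.6 and 22 CPM (1.54 ± 0.08 (SE)), and the methyltransferase Ezh2 rose by 0.57 ± 0.04 (SE). Of 16 genes of DNA methylation 4 rose, 8 fell and 4 did not pass the test, with a median log2 fold change of -0.14, with Tet2 (1.01 ± 0.09 (SE)) rising and Mbd3 (-0.87 ± 0.05 (SE)) falling. Of 16 genes for histones with polyadenylated transcripts 6 rose, 6 fell and 4 did not pass the test, with a median log2 fold change of 0.09 (-0.12 without control replicate 3), and the linker histone H1fx rose from 2.42, 2.49 and 2.18 CPM to 7.28, 8.93 and 11.1 CPM (1.94 ± 0.19 (SE)) while H2afx fell by 0.94 ± 0.05 (SE).

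In metabolism, genes of sterol and lipid synthesis mostly rose and fatty acid synthase fell. Of 27 sterol and lipid synthesis genes 18 rose, 4 fell and 5 did not pass the test, with a median log2 fold change of 0.27. Cyp51, a demethylase of the sterol pathway, went from 249, 245 and 244 CPM to 409, 407 and 415 CPM (0.74 ± 0.04 (SE)), and Fasn went from 501, 581 and 616 CPM to 315, 269 and 284 CPM (-0.97 ± 0.07 (SE)). The groups of both genes were apart. Of 26 glycolysis genes 10 rose, 10 fell and 6 did not pass the test, with a median log2 fold change of 0.03. Aldolase A (Aldoa) went from 346, 335 and 320.04 CPM to 944, 1034 and 1049 CPM (1.6 ± 0.13 (SE)) and aldolase C (Aldoc) from 2.81, 2.87 and 2.96 CPM to 8.58, 11.8 and 11.7 CPM (1.89 ± 0.21 (SE)), whereas the liver-type phosphofructokinase Pfkl fell by 1.13 ± 0.09 (SE). Of 38 lysosome genes 19 rose, 10 fell and 9 did not pass the test, with a median log2 fold change of 0.12, with progranulin (Grn, 1.61 ± 0.06 (SE)) and cathepsin L (Ctsl, 1.57 ± 0.11 (SE)) rising and beta-glucuronidase (Gusb, -1.34 ± 0.06 (SE)) falling.

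Stress and survival genes were divided. Of 24 genes of the endoplasmic reticulum chaperones 8 rose, 11 fell and 5 did not pass the test, with a median log2 fold change of -0.09, with Herpud1 falling by 1.12 ± 0.05 (SE) and Atf6 rising by 0.92 ± 0.06 (SE), while Hspa5 (-0.08), the chaperone BiP, was not called. Of 25 heat shock genes 7 rose, 12 fell and 6 did not pass the test, with a median log2 fold change of -0.05, and of 26 redox and metallothionein genes 10 rose, 12 fell and 4 did not pass the test, with a median log2 fold change of -0.14, in which Mt3 went from 30.4, 26.1 and 24.7 CPM to 82.6, 96.4 and 95.8 CPM (1.76 ± 0.08 (SE)). Of 14 BCL2 family genes 7 rose, 6 fell and 1 did not pass the test, with a median log2 fold change of 0.00. The BH3-only death gene Bcl2l11 (Bim) went from 15.4, 18 and 18.3 CPM to 33.8, 38.7 and 36.4 CPM (1.07 ± 0.07 (SE), adjusted p = 4.83e-08), and the effector Bak1 from 89.1, 94.5 and 87.8 CPM to 45.7, 44.7 and 47.7 CPM (-0.98 ± 0.05 (SE)). The groups did not overlap in either gene, and these pro-death members moved in opposite directions.

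Some neighbouring genes rose together. Runs of at least 3 neighbouring tested genes that all changed at least 2-fold in 1 direction, with gaps of at most 100000 bases, numbered 25 upward and 2 downward. Over all tested genes, 9.85% rose and 2.35% fell that far. How many runs such shares give without any grouping of genes was not computed, so the numbers of runs are a description. The run with Galr3 lists the symbol Gcat repeatedly. Interferon-induced families made up several of them, such as Ifi214, Ifi209, Ifi207 and Ifi204 on chromosome 1, Ifit3, Ifit1bl2 and Ifit1 on chromosome 19 and Trim30b, Trim30a, Trim30d and Gm16464 on chromosome 7. Other runs were 5 variable segments of the T-cell receptor alpha locus on chromosome 14 and Trbv2 to Trbv6 on chromosome 6. The lectin-like genes Clec2i, Clec2g, Klrb1f and Clec2e on chromosome 6 formed another. A further run held 5 histone genes of the Hist1 cluster on chromosome 13, with a median log2 fold change of 1.42. Its member Hist1h2bp was low, with means of 0.562 CPM in control and 1.51 CPM in SAHA, and is also in the histone list above. A run on chromosome 13 without a shared family was Ccno, Mcidas and Cdc20b, which act in multiciliated cells, with log2 fold changes of 1.49 to 2.69. Copies within a family share sequence, and reads may be divided among them, so the value of a single member is uncertain.

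Beside the Smarcb1-RE libraries, which share the control libraries with SAHA so that the 2 comparisons are not independent, the levels of members differed in several ways. The mean level of Irf7 was 1.64 CPM in control, 18.6 in SAHA and 30.7 in Smarcb1-RE. For the ATF4 response the means of Trib3 were 15.2, 3.45 and 74.3 CPM, those of Chac1 9.22, 2.52 and 31.2 CPM and those of Asns 262, 127 and 357 CPM, so that SAHA lay below and Smarcb1-RE above control. Ifng was at 23.4, 175 and 25.1 CPM, Irf8 at 2.99, 17.7 and 0.449 CPM and Egr3 at 0.378, 6.61 and 0.102 CPM. Ccnb2 was at 126, 72.5 and 48.5 CPM. Of the 61 genes switched on by SAHA, 18 had at least 1 CPM in every Smarcb1-RE library and 12 had a Smarcb1-RE mean under 0.3 CPM. The same shares among the 732 tested genes that were near silent in control are not given here. Such genes are tested only if SAHA or Smarcb1-RE libraries are high enough, so these counts do not measure how far the 2 treatments overlap.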

How the data were processed

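RNA-seq was analysed in 3 control and 3 SAHA libraries of T15 cells. The authors deposited estimated counts of the genes of each library in 1 table, without normalization or pooling, and 52.4% of the positive values were not whole numbers. The submitters' processing notes name Salmon 0.14.1, DESeq2 1.22.2, FastQC 0.11.8, MultiQC 1.7 and the build GRCm38 without a role or order. Libraries were directional and sequenced as single-end reads. Names and coordinates came from GENCODE M21, which held 99.5% of the identifiers and 99.9% of the counts. Reads that paralogs, pseudogenes or overlapping genes share were divided in the quantification, so such genes are uncertain.

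The deposited estimated counts were rounded to whole numbers and fitted in R 4.3.3 with edgeR 4.0.16 (TMM, glmQLFit and glmQLFTest after filterByExpr at its minimum count of 10, with Benjamini-Hochberg adjustment, adjusted p under 0.05) in 1 model of all 9 libraries without covariates. Standard errors (SE) were taken as |log2 fold change| over the root of F. The common biological coefficient of variation was 5.24%. The replicate numbers come from the titles. Deviations from the group means of libraries with the same number had correlations across genes of 0.013, 0.007 and 0.004, so the numbers were not taken to pair the samples. The code was tested on simulated counts.

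The comparison, the gene lists and the markers were chosen with earlier results of these data known. Named genes are the 10 with the largest change per direction (average log2 CPM of at least 1, no overlap of groups), the 12 protein-coding genes switched on with the highest SAHA level and the genes lost, the 6 per direction with the largest difference in mean CPM, up to 4 called members of each list with the largest change, members a list is built around, and genes in runs of neighbours. Members named as exceptions or for their function (Asns, Ccl3, Ccnd2, Ccne1, Cdkn2c, Cebpb, Celsr3, Cplx2, Egr1, Elavl4, H2-DMa, H2afx, Ina, Mafg, Map1a, Mcm6, Nefh, Nupr1, Pfkl, Rbl1, Sesn2, Slc1a5, Snap25, Syp and Thbs3) were chosen after their values were seen. Some genes that these rules select are not reported here. Promoter windows (250 bases before to 50 after the start) came from RefSeq on GRCm38.p6 and matched 71.5% of tested genes, too few for a check over all genes, and no genome sequence was used here.

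The alternatives were median-ratio factors, library totals, DESeq2 1.42.0, at least 10 counts in every library, no filter on low counts, SAHA and control libraries only, the replicate number as a block, an adjusted p under 0.01, counts not rounded, leaving out each of the 6 libraries, and other limits for near silence and expression.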

Additional observations from a re-analysis of the deposited data

How the results depend on the processing

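The alternatives were applied to 258 genes, those that the naming rules selected and most of the others that the text names. Of their log2 fold changes, 3743 values kept their direction and side of the threshold, 54 values in 12 genes lost the call and none reversed. Requiring at least 10 counts in every library gave 899 genes higher by a log2 fold change of at least 1 instead of 1349, since fewer low genes were tested. The number of genes switched on was 9 and that of genes lost 1 when near silence meant under 0.1 CPM, 133 and 9 when it meant under 0.5 CPM, and 18 and 0 when expression meant at least 2 CPM in every library. The requirement of 10 counts in every library was not run for these counts because it removes near-silent genes. Leaving out 1 library gave 4055 to 4645 genes higher, 4324 to 4798 lower, 1299 to 1442 and 308 to 383 at a log2 fold change of at least 1, 58 to 79 switched on and 3 to 5 lost. With the replicate number as a block, 4366 genes were higher, 4664 lower, 61 switched on and 3 lost, and the samples share only a number. DESeq2 called 4177 higher and 4425 lower. The share of called genes that were higher was 47.5% to 49.7% under every setting. Each setting scales the libraries to their totals or to the bulk of genes. Rises and falls are therefore relative, and a change in total RNA per cell was not measured. Of the medians of 43 gene lists, those of 3 moved by over 0.15 (log2) when 1 library was left out: MHC class II (0.93 without SAHA replicate 2, 2.01 without SAHA replicate 1), cytokines (0.73 without control replicate 2) and histones (-0.12 without control replicate 3), and the others moved by at most 0.12. With at least 10 counts in every library the MHC class II median was 0.93, and with SAHA and control libraries only 0.99. Medians near 0 of BCL2 family, MHC class I, Polycomb, ribosomal protein, tubulin and heat shock genes changed sign with the setting. At this depth a gene under about 0.13 CPM rests on 3 counts or fewer, and changes of such genes carry wide counting intervals. Control replicate 1 stood apart from the other controls.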
